A study of Homo sapiens with 2 samples.

Results

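The genes described here are the chemokines, the interleukins and their receptors, chosen by symbol alone: CXCL, CCL, CXCR or CCR followed by a number, CX3CL1, and IL followed by a number and optional letters or digits. The subunits of the IL-6 receptor were left out. The rule found 129 of 19775 measured genes, on 212 of 41091 probe sets that name 1 gene. They were 75 ligands (35 chemokines, 40 interleukins), 51 receptors (14 for chemokines, 37 for interleukins) and 3 others: the binding protein IL18BP, the secreted receptor IL22RA2 and the enzyme IL4I1. The series held 2 cultures of Huh7. This established line from a human hepatocellular carcinoma was grown in DMEM with serum and antibiotics. Both carried a stably integrated lentiviral short hairpin RNA (shRNA). The hairpin of one culture targets CD24, a small surface glycoprotein, and that of the other is a non-target control. Whether either culture was a clone or a pool is not given in the sources used here.

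Total RNA of each culture was hybridised to 1 Affymetrix array, which gave 1 array per group. The deposited values were log2 values centred within each probe set, so the control and CD24 shRNA values of a probe set are equal in size and opposite in sign. The quantity reported is the log2 difference, CD24 shRNA minus control, as the mean over the probe sets of a gene. Precision is limited by the number of arrays: there is no replicate check of any difference and no test was run. The SD given is over probe sets of 1 gene, and its pooled value over 10523 genes was 0.27. It does not measure the spread between cultures or between replicate arrays. CD24 lay at 0.68 in control and -0.68 with CD24 shRNA, a difference of -1.37 ± 0.38 (SD, 6 probe sets). In bulk RNA, fewer cells that express a gene and less RNA per cell cannot be told apart.

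Chemokines are small secreted proteins that guide migrating cells through G protein-coupled receptors. CXC and CC chemokines are named for the spacing of their first cysteines. Interleukins are secreted signals that act through surface chains which pair to form receptors and often share subunits. Interleukins of the IL-1 family signal through MYD88 to NF-kB, and many others through JAK kinases and STAT factors. Hepatocytes respond to IL-1 and IL-22 with acute-phase proteins, and stressed liver epithelium makes CXCL8, CXCL1 and CCL20, which attract neutrophils and CCR6-bearing lymphocytes.

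CXCL8, CXCL6, CXCL1, CXCL5, CXCL3 and CXCL2, ligand genes that attract neutrophils, lie in the same stretch of chromosome 4. PF4V1, PF4 and PPBP lie among them. The DNA before the starts of those 6 CXCL genes has a sequence in common. Windows of 99 bases around it are printed 5′ to 3′ in the direction of the gene, from RefSeq promoters of GRCh38.p14, for the 6 cluster members measured under the rule and for CXCL10 and CXCL11. They are shown because these ligands include both the highest and several of the lowest chemokine ligand values below. The capitals mark GGAATTTCC, a form of the NF-kB site, or its reverse complement GGAAATTCC.
CXCL8 (chr4:73740433-73740531, plus strand): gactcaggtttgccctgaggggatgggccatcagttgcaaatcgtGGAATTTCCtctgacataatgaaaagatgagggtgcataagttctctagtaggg
CXCL6 (chr4:73836544-73836642, plus strand): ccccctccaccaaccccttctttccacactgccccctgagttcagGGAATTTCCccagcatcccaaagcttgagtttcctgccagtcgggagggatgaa
CXCL1 (chr4:73869270-73869368, plus strand): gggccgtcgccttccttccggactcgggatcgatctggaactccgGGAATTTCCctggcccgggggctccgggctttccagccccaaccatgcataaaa
CXCL5 (chr4:73998714-73998812, minus strand): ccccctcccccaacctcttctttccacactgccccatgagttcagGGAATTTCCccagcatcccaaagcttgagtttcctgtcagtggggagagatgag
CXCL3 (chr4:74038714-74038812, minus strand): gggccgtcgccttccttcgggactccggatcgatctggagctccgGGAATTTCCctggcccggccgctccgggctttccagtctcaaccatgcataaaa
CXCL2 (chr4:74099219-74099317, minus strand): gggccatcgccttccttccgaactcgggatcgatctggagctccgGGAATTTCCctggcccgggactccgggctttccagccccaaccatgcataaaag
CXCL10 (chr4:76023620-76023718, minus strand): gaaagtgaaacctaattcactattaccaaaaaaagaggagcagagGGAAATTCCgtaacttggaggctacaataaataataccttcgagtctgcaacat
CXCL11 (chr4:76036092-76036190, minus strand): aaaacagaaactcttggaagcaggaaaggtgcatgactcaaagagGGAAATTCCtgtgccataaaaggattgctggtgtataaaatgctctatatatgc
The motif was searched on both strands of the 250 bases before each start. It was found in 0.413% of 35116 promoters in the table, and per gene in 137 of 27305 genes (0.502%) and in 9 of the 102 member genes that matched a promoter entry. The 9 were the 8 ligands printed and 1 receptor gene, IL18RAP. In CXCL8, CXCL6, CXCL1, CXCL5, CXCL3 and CXCL2 the match ended between 68 and 82 bases before the start. The motif was chosen after the values had been seen, and a match is a description of the letters only.

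Across the 129 genes the values centred close to those of all genes, and a small number stood far out on either side. At a 2-fold threshold 3 members were higher (CXCR4, IL32 and IL18) and 1 was lower (IL1R2), against 0.632% of all genes higher, 0.485% lower and 1.12% in either direction. At 1.5-fold 5 members were higher and 8 lower, or 10.1% in either direction, against 2.63% of all genes higher, 2.38% lower and 5.01% in either direction. Ligands had a median of -0.01 with 33 of 75 genes above 0 and 38 below. Receptors had a median of 0 with 25 of 51 above 0 and 24 below. The median over all genes was 0. Just outside the 1.5-fold threshold lay CXCL5 at -0.58, IL10RB at -0.57 and CCL4 at 0.55, and just inside it IL22RA1 at -0.62, CXCL16 and CXCL1, both at -0.63.

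**Figure D1:**
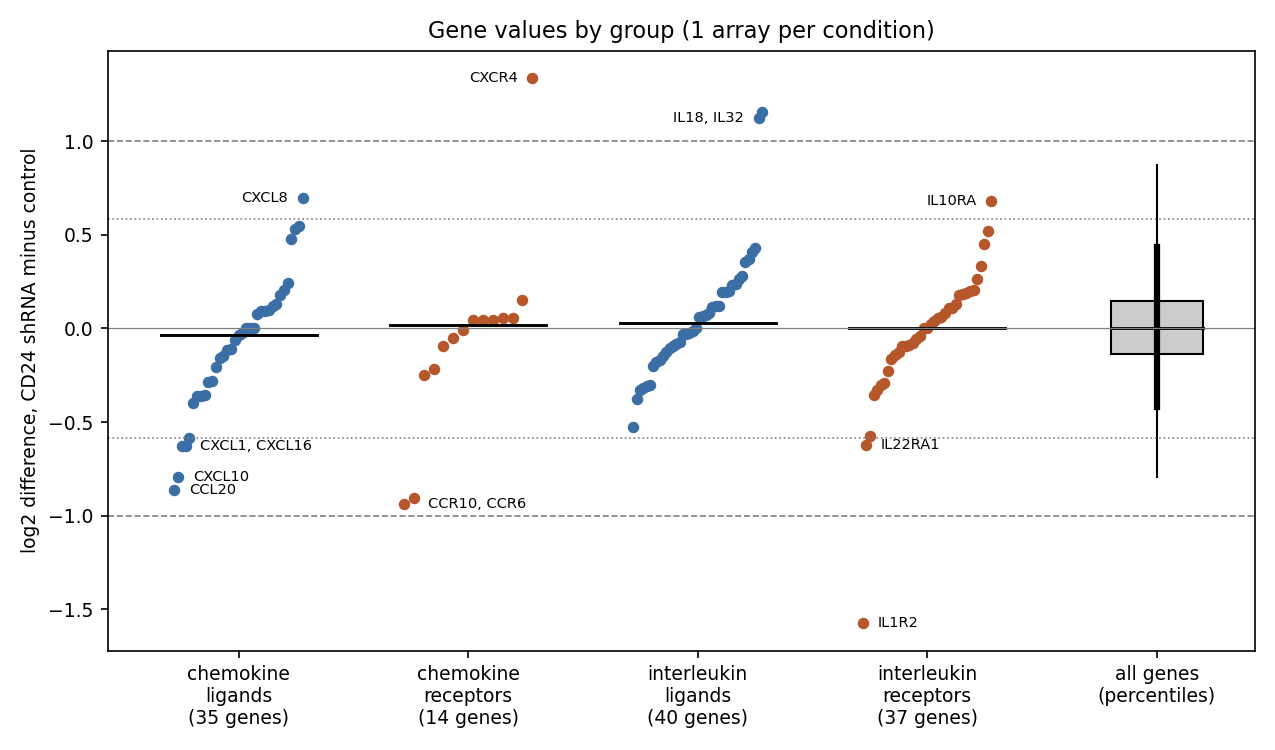
Log2 difference (CD24 shRNA minus control) of each ligand and receptor gene, in 4 groups, with the group's median as a black line and genes past 1.5-fold named. IL18BP, IL22RA2 and IL4I1 are not drawn. Dashed and dotted lines mark 2-fold and 1.5-fold, and the box and bars at the right give the 25th to 75th, 5th to 95th and 1st to 99th percentiles of all genes. Most members lie within the 5th to 95th percentiles, and CXCR4 (1.34) and IL1R2 (-1.57) are the highest and the lowest.

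Levels are not in the table, but the digits of the values place part of the probe sets on the log2 scale. Of the 212 member probe sets, 82 (38.7%) had their dimmer array below 4, near the array's background, against 25.4% of all probe sets. The mean of both arrays was placed between 4 and 8 for 15 member probe sets and at 8 or more for 1, that of CCL20, and 70 could not be placed. All probe sets of 45 member genes were placed below 4, 18 of these genes with a value below 0 and 27 above. The same split was not counted over all genes, so it has no comparison. Of the 14 member genes with a probe set placed at 4 or more, 11 lay below 0 (CCL20, CXCL10, CX3CL1, CXCL2, CCL28, CCR6, IL22RA1, IL10RB, IL27RA, IL17RB and IL23A) and 3 above (IL13RA1, IL1RAP and IL17RC). Among all 3693 genes with such a probe set 47.9% lay below 0. Of the 14, CCL28, IL17RB, IL27RA and IL17RC lay within the pooled SD. The sign counted is that of the gene mean. CXCL2, CCL28 and IL27RA also had a probe set above 0, and IL17RC had a probe set below 0. In each of these genes the probe set placed at 4 or more had the sign of the mean. The split covers only genes that the digits could place at 4 or more. Outside it lie CXCR4, IL32, IL18 and CXCL8 above 0, and IL1R2, CXCL1 and CXCL16 below 0. Brighter probe sets passed 1.5-fold more often: 13.6% of those centred between 4 and 8 did in either direction, against 4.33% of those below 4.

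Among chemokine ligands, 4 of 35 (11.4%) were at least 1.5-fold lower and 1 (2.86%) was higher. Over all genes the shares were 2.38% and 2.63%. CCL20, the ligand of CCR6, lay at 0.43 in control and -0.43 with CD24 shRNA, a difference of -0.86 (1 probe set). CXCL10, an interferon-inducible ligand of CXCR3, lay at 0.40 in control and -0.40 with CD24 shRNA, 1.73-fold lower (1 probe set). CXCL1, a neutrophil attractant, and CXCL16, a membrane-bound ligand of CXCR6, were 1.55-fold and 1.54-fold lower, each on 1 probe set. After scaling on the hybridisation controls these 2 genes lay at -0.52 and -0.51, no longer past 1.5-fold. These 4 ligands act on different receptors. CX3CL1, the membrane-bound fractalkine, had agreeing probe sets at -0.37 and -0.42, both placed between 4 and 8, with a mean of -0.40 ± 0.03 (SD, 2 probe sets).

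CXCL8, the best known neutrophil attractant, went the other way. It lay at -0.35 in control and 0.35 with CD24 shRNA, 1.62-fold higher, with probe sets at 0.51 and 0.88. The names of both its probe sets carry the suffix _s_at or _x_at, given to sets that may hybridise to several transcripts. The other measured CXCL genes of its chromosome 4 cluster all had means below 0: CXCL6 at -0.36, CXCL1 at -0.63, CXCL5 at -0.58 ± 0.52 (SD, 3 probe sets), CXCL3 at -0.11 and CXCL2 at -0.36 ± 0.46 (SD, 3 probe sets). CXCL5, a neutrophil attractant like CXCL1, had probe sets at -0.74 and -1.01, and one that was tied at 0. CXCL2 had one probe set, centred between 4 and 8, at -0.87, and others at -0.23 and 0.03. The CXCL3 difference is within the pooled SD. All 6 genes carry the motif shown above, and the 78 measured genes that hold it had a median of -0.02 with 42 below 0 and 34 above. The platelet chemokine genes PF4V1, PF4 and PPBP of the same stretch lay at 0.16, -0.28 and 0.

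**Figure D2:**
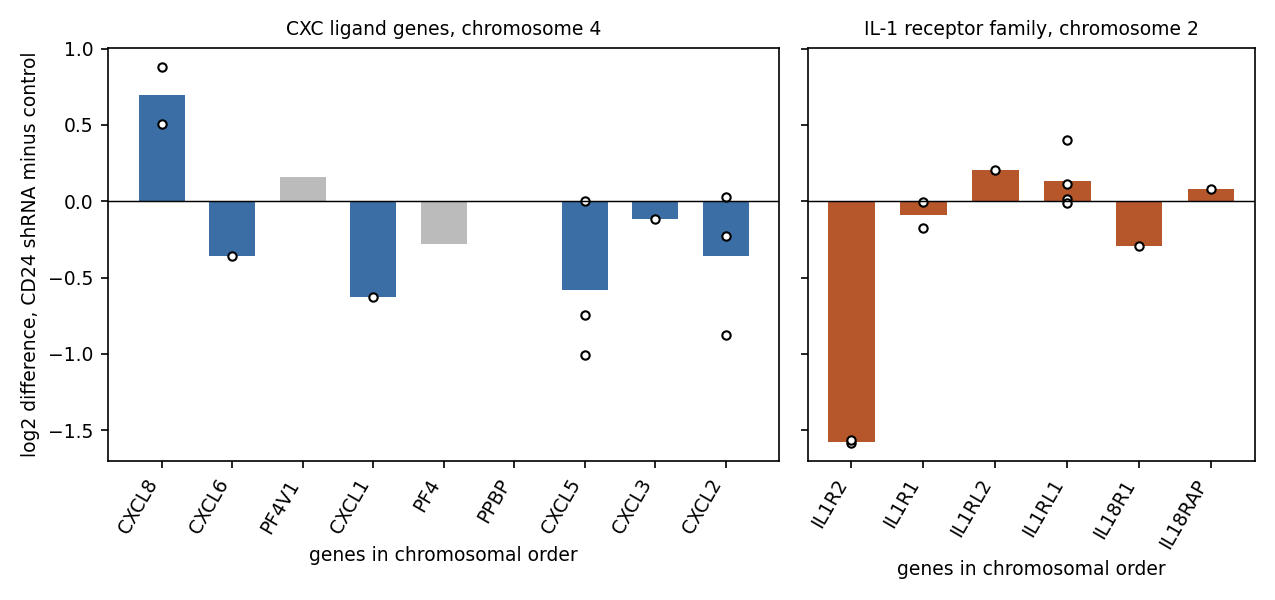
Log2 difference (CD24 shRNA minus control) of neighbouring genes in chromosomal order, as bars for the gene mean and open circles for single probe sets of members. In the left panel CXCL8 (0.69) is above 0 and the other 5 CXCL genes are below, with the platelet chemokine genes in grey. In the right panel IL1R2 (-1.57) stands apart from its 5 neighbours, which lie between -0.29 and 0.21.

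Other chemokine ligands did not pass 1.5-fold in the main setting. After scaling on the hybridisation controls CCL2, CCL4 and CXCL12 did, on the higher side. CCL2, a monocyte attractant, was 1.45-fold higher on 1 probe set placed below 4, and CCL4, a ligand of monocytes and T cells, was 1.46-fold higher on 1 probe set. CXCL12, the ligand of CXCR4, had probe sets that disagreed, at 0.91 and 0.05 (0.48 ± 0.60, SD, 2 probe sets). The CXCR3 ligands did not move as one: beside CXCL10, CXCL11 lay at -0.29 ± 0.22 (SD, 2 probe sets, both below 4) and CXCL9 at 0.09 (1 probe set, below 4). CCL1, CCL11 and CCL26 were tied at 0 between the arrays.

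Among chemokine receptors CXCR4, the receptor of CXCL12 and the highest of all 129 members, was 2.53-fold higher. Its centred value was -0.67 in control and 0.67 with CD24 shRNA. All 3 of its probe sets were above 0, at 1.64, 1.38 and 0.99, with a mean of 1.34 ± 0.32 (SD). CXCR4 lay at percentile 99.7 of all genes. CCR6 and CCR10, receptors of lymphocytes that home to epithelia, were 1.88-fold and 1.92-fold lower, each on 1 probe set. The CCR6 probe set was centred between 4 and 8, whereas that of CCR10 had its dimmer array below 4. The other 11 chemokine receptors lay between -0.25 and 0.15, among them CXCR3 at -0.25 ± 0.10 (SD, 2 probe sets), CXCR1, a receptor of CXCL8, at -0.22 and CCR2, the receptor of CCL2, at 0.15 ± 0.05 (SD, 2 probe sets). The most extreme of these differ from 0 by less than the pooled SD between probe sets.

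Of 40 interleukin ligands, 2 (5%) were at least 2-fold higher, against 0.632% of all genes. None was 1.5-fold lower, against 2.38% of all genes. IL32, a proinflammatory cytokine that NF-kB signalling induces, lay at -0.58 in control and 0.58 with CD24 shRNA, 2.23-fold higher on 1 probe set whose name ends in _s_at. IL18, an IL-1 family cytokine that caspase-1 matures, lay at -0.56 in control and 0.56 with CD24 shRNA, 2.18-fold higher on 1 probe set. CASP1, which encodes that protease, lay at -0.13 ± 0.12 (SD, 5 probe sets), and the IL-18 inhibitor IL18BP at -0.06 ± 0.22 (SD, 3 probe sets). IL7, a lymphocyte growth factor, was the lowest of the ligands of this group, 1.44-fold lower on 1 probe set.

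Both classic IL-1 agonists were dim and differed in sign. IL1A lay at 0.43 ± 0.14 and IL1B at -0.33 ± 0.20 (SD, 2 probe sets each, all placed below 4). The receptor antagonist IL1RN lay at -0.07 ± 0.14 (SD, 5 probe sets). IL12B, a subunit of IL-12 and IL-23, lay at 0.41 and IL10, an anti-inflammatory cytokine, at -0.38, each on 1 probe set below 4. IL6, the main inducer of hepatic acute-phase proteins, lay at 0.24 (1 probe set), which is within the pooled SD. IL23A had 4 probe sets, all below 0, from -0.48 to -0.08.

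The other interleukin families showed small values. The IL-36 agonists, epithelial members of the IL-1 family, lay at 0.07 (IL36A), 0.28 ± 0.40 (IL36B, SD, 2 probe sets) and 0.20 (IL36G), and their antagonist IL36RN at 0.20. IL33, a nuclear alarmin of the same family, lay at -0.32 on 1 probe set placed below 4. Of the IL-17 ligands, which act on epithelia with NF-kB signals, IL17A, IL17B, IL17C, IL17D and IL17F lay between 0.06 and 0.27, and IL25 was tied at 0. IL11, a fibrosis-associated relative of IL-6, had probe sets at -0.07 and -0.12. IL15, which sustains NK cells, had 1 probe set at -0.25 and 1 tied at 0, and the probe set of its receptor chain IL15RA was tied as well. IL34, a ligand of the CSF1 receptor, lay at -0.20 on 1 probe set.

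Of 37 interleukin receptor genes, 2 (5.41%) were at least 1.5-fold lower and 1 (2.70%) was higher. Among all genes 2.38% were lower and 2.63% higher. IL1R2, the decoy receptor that binds IL-1 without signalling, had the lowest value of all members. It lay at 0.79 in control and -0.79 with CD24 shRNA, 2.98-fold lower, with probe sets at -1.58 and -1.57 (SD 0.01). One of these had its dimmer array below 4, the other below 8. Only 0.086% of all genes had a lower value. IL1R1, the signalling receptor whose gene is next to IL1R2, lay at -0.09 ± 0.12 (SD, 2 probe sets). IL1RAP, the chain that pairs with IL1R1, was 1.37-fold higher, with probe sets at 0.35 and 0.55. The rest of this gene cluster, IL1RL2, IL1RL1, IL18R1 and IL18RAP, lay between -0.29 and 0.21.

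The chains of the IL-22 receptor were lower together. IL22RA1, its specific chain, lay at 0.31 in control and -0.31 with CD24 shRNA, 1.54-fold lower, and at -0.51, inside 1.5-fold, after that scaling. IL10RB, the chain that the receptors for IL-22 and IL-10 share, lay at 0.29 in control and -0.29 with CD24 shRNA, 1.49-fold lower. Each had 1 probe set, centred between 4 and 8. At that level 6.15% of all probe sets were at least 1.5-fold lower and 7.42% higher. IL10RA, the specific chain of the IL-10 receptor, was 1.60-fold higher on 1 probe set placed below 4, where 2.32% of all probe sets were at least 1.5-fold higher and 2.01% lower.

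The chains for IL-4 and IL-13 differed in sign. IL13RA1 had all 4 probe sets above 0, at 0.25, 0.52, 0.59 and 0.71, with a mean of 0.52 ± 0.20 (SD). IL4R, its partner in the type II receptor, lay at -0.35 (1 probe set), and IL13RA2, a decoy for IL-13, at 0.18 on 1 dim probe set. IL7R had probe sets at -0.68 and 0.03, and IL27RA at 0.33, -0.16 and -0.85, so neither has 1 direction. Of the IL-17 receptor genes, IL17RE lay at -0.30 ± 0.06 (SD, 2 probe sets), beyond the pooled SD. The others lay within it, with IL17RA at 0.02 ± 0.10 (SD, 4 probe sets) and IL17RB at -0.12 ± 0.08 (SD, 3 probe sets). IL17RC lay at 0.04 ± 0.20 (SD, 4 probe sets) and IL17RD at -0.04 ± 0.30 (SD, 2 probe sets).

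Receptor chains of lymphoid cytokines were mostly within the pooled SD. The IL-2 receptor chains IL2RA, IL2RB and IL2RG lay at 0.20 ± 0.13 (SD, 2 probe sets), -0.08 and 0.06, and the last of these, the chain shared with receptors for IL-4, IL-7 and IL-15, was placed below 4. The IL-12 receptor chains IL12RB1 and IL12RB2 lay at 0.06 ± 0.10 (SD, 3 probe sets) and 0.33 (1 probe set, below 4). IL11RA, the receptor for IL-11, had probe sets that disagreed, at 0.10 and -0.43. IL20RA, a chain of the receptors for IL-20 and IL-24, had 3 dim probe sets from -0.30 to 0.12. IL1RL1, the receptor for IL-33, had 4 probe sets from -0.01 to 0.40. Of the 3 genes counted with neither ligands nor receptors, IL18BP is given above, the enzyme IL4I1 lay at -0.12 and IL22RA2, a soluble decoy for IL-22, at -0.05.

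**Figure D3:**
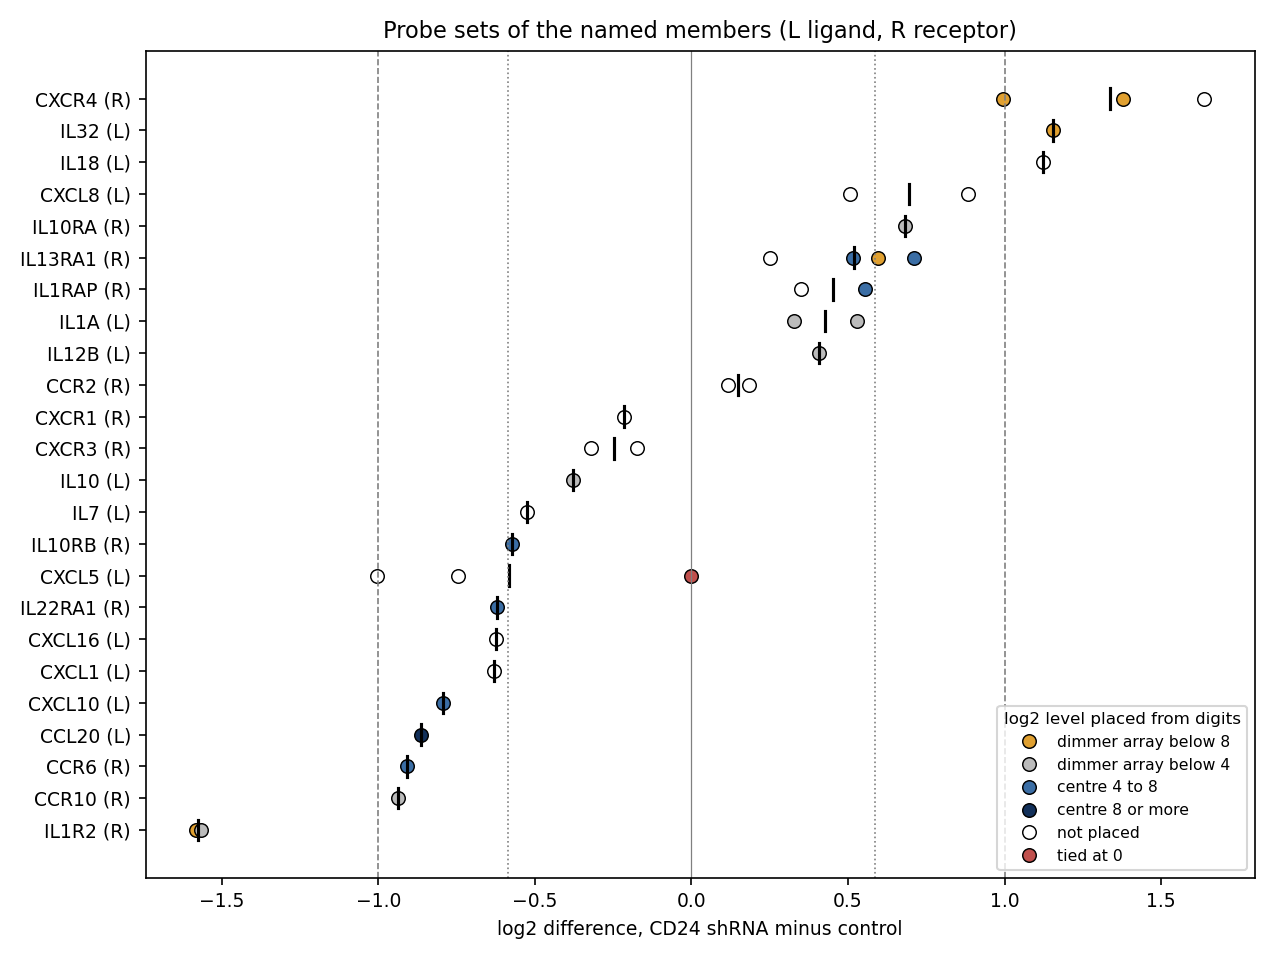
Log2 difference (CD24 shRNA minus control) of every probe set (circles) of the 24 named members, with the gene mean as a black tick and the fill showing the log2 level placed from the digits of the file. The 3 CXCR4 probe sets lie at 0.99 or more and both IL1R2 probe sets below -1.5, whereas CXCL5 has a tied probe set at 0.

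Set side by side, some ligand and receptor genes had values of 1 sign and others did not. CCL20 (-0.86) and its receptor CCR6 (-0.91) were both lower, and both had levels placed at 4 or above. CXCR4 (1.34) was higher together with 1 of 2 probe sets of CXCL12. CCR10 (-0.94) was lower, and its ligands CCL27 and CCL28 lay at -0.36 and -0.16 ± 0.20 (SD, 3 probe sets). CXCL16 was lower while its receptor CXCR6 lay at 0.06 ± 0.04 (SD, 2 probe sets). IL18 was higher while its receptor chains IL18R1 and IL18RAP lay at -0.29 and 0.08. These pairs come from textbook knowledge of binding, and each value is a transcript difference on 1 pair of arrays.

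**Figure D4:**
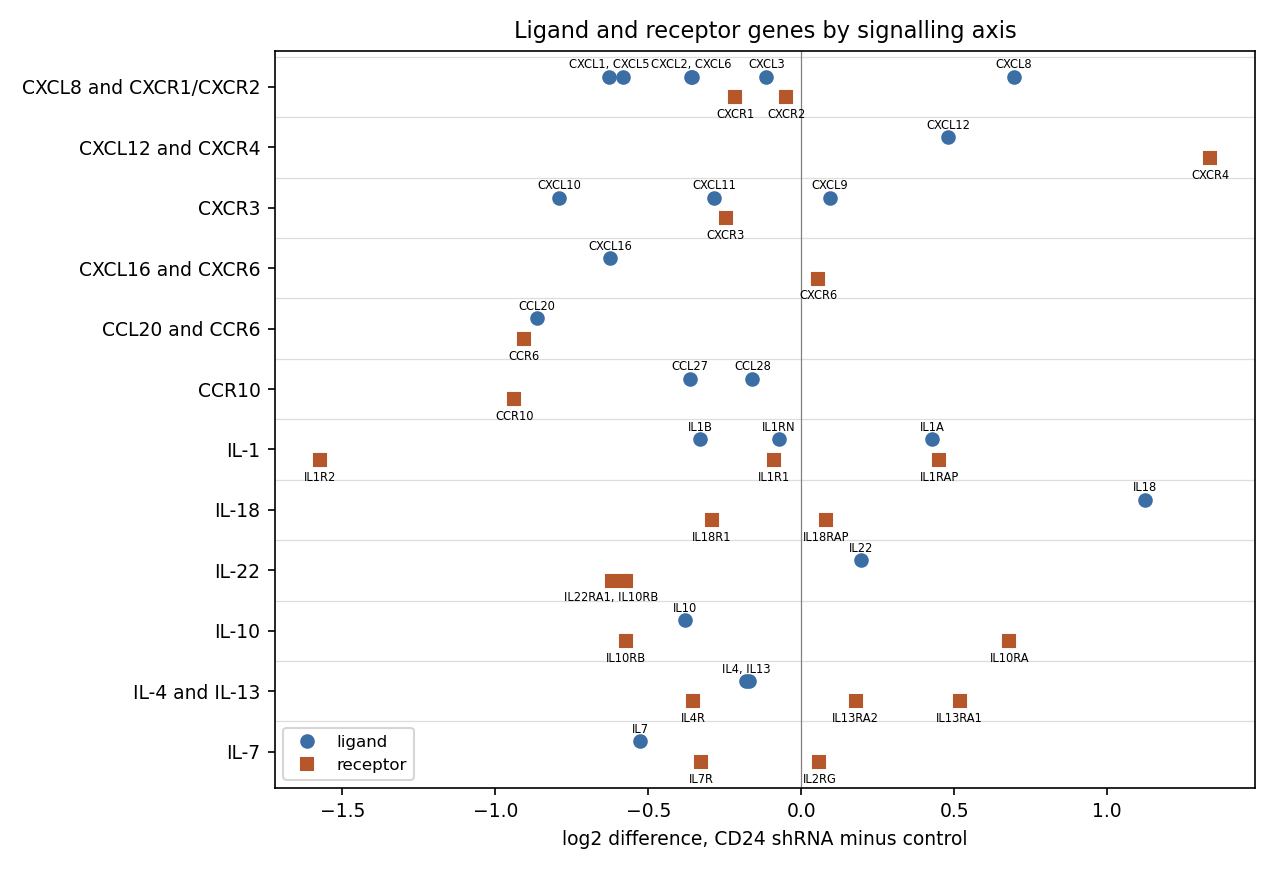
Log2 difference (CD24 shRNA minus control) of ligand genes (blue circles) and receptor genes (brown squares), arranged by signalling axis. CCL20 and CCR6 lie together near -0.9, the IL-22 receptor chains near -0.6, and the IL-1 receptor genes spread from -1.57 (IL1R2) to 0.45 (IL1RAP).

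Genes that transmit or limit these signals were listed apart from the members, and 47 of 53 were measured. Their median was 0.05, with 28 above 0 and 16 below. At least 1.5-fold higher were 2 (4.26%) and lower 1 (2.13%), against 2.63% and 2.38% of all genes. SOCS2, a feedback inhibitor of cytokine receptors, was 2.19-fold higher in the mean, with 3 probe sets that ran from 0 to 1.81. DPP4, a surface protease that trims chemokines, was 1.52-fold higher (0.61 ± 0.14, SD, 3 probe sets). STAT4, which acts after IL-12, was 1.55-fold lower and CCRL2, an atypical chemoattractant receptor, 1.45-fold lower, each on 1 probe set. Of the adaptors, MYD88 lay at 0.33, IRAK1 at 0.37 ± 0.23 (SD, 2 probe sets) and TRAF3IP2, the adaptor of the IL-17 receptor, at -0.46 ± 0.03 (SD, 2 probe sets). SIGIRR, an inhibitory IL-1 receptor family member, lay at -0.48 ± 0.01 (SD, 2 probe sets). SOCS3 and NFKBIA, feedback genes of STAT3 and NF-kB, lay at 0.04 ± 0.12 (SD, 4 probe sets) and -0.09 ± 0.27 (SD, 2 probe sets).

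Markers of other cells were checked because many members are best known from leukocytes. Of 12 measured leukocyte markers, 11 had means between -0.37 and 0.31. Single probe sets ran from -0.26 to 0.82 for ITGAM and from -0.24 to 0.60 for PTPRC. Of the 24 probe sets of all 12 markers, 9 were placed below 4, 0 at 4 or more, and 11 could not be placed. The 12th, LYZ, the secreted lysozyme, was 3.21-fold lower, with probe sets at -1.79 and -1.58 that could not be placed. The 4 endothelial markers lay between -0.24 and -0.04. Of the markers of the hepatocyte lineage 8 of 9 were measured, between -0.37 (APOA2) and 0.59 (FGB). Of their 19 probe sets, 0 were placed below 4, 6 were placed at 4 or more, and 10 could not be placed. The part of LYZ-bearing cells in these values was not tested.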

How the data were processed

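Gene expression was measured on 2 Affymetrix arrays, 1 per group, labelled with biotin. The submitters' processing notes name RMA for the deposited log2 values (background correction, quantile normalisation and summary of probes). Software and later steps are not given there. Tested on the file, both values of every probe set sum to 0 within 1e-06, so only differences are held.

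Of 54675 probe sets, 41091 name 1 gene in GEO's annotation of the platform. Control probe sets were left out, and there was no filter on low values. All 129 member genes had their symbol in RefSeq (GRCh38.p14). Probe sets of a gene were averaged. Levels were placed from the spacing of single-precision numbers, which is finer below 4 and below 8; this placed 116 of 208 probe sets of olfactory, taste, keratin-associated and defensin genes below 4, and 10 of 123 of ribosomal protein genes. Rounded digits may misplace a few.

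Named genes were CD24, members at least 1.5-fold different, the 6 largest differences per group, and the 4 largest of the signalling list. Other members were named after their values were seen. Members and lists were chosen with earlier results of these data known. With 1 array per group no test was run. Alternatives were the median or the largest probe set per gene, filters on probe set name or level, other scalings, thresholds and readings of the symbol rule. Calculations were tested on simulated data and run in Python 3.11.15 with pandas 2.3.3.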

Additional observations from a re-analysis of the deposited data

How the results depend on the processing

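No paired analysis was possible because each group holds 1 array. Scaling on the 18 hybridisation control probe sets adds 0.11 to every difference: the ligand and receptor medians became 0.10 and 0.11. At least 1.5-fold higher were then 6 ligands and lower 2, against 3 and 4. CCL2, CCL4 and CXCL12 now passed the threshold, and CXCL1 and CXCL16 no longer did. Of the receptors, IL13RA1 (0.63) passed it and IL22RA1 no longer did. With probe sets of the suffixes _s_at, _x_at and _a_at left out, 1 ligand (IL18) was at least 2-fold and 1.5-fold higher, because the only probe sets of IL32 and CXCL8 were removed. There CXCL5 lay at 0 and IL13RA1 at 0.25. With the largest probe set per gene 1 ligand was 2-fold lower and the receptor median was -0.050. Without probe sets placed below 4, 1 receptor was at least 1.5-fold higher. With IL symbols read as number and letters only, 39 of 51 receptors were left, and IL1R2 and IL22RA1 were among those dropped. There 0 receptors were 2-fold and 2 were 1.5-fold lower. Counting probe sets, 1 ligand was 2-fold and 7 were 1.5-fold lower, and receptors gave 2 at 2-fold higher, 2 lower, 6 at 1.5-fold higher and 7 lower. At 3-fold, 0 ligands and 0 receptors were higher and 0 receptors lower. Apart from CXCL5 without those suffixes, each of the 29 named genes, CD24 included, kept its sign wherever it had a value (25 and 23 genes in the filtered settings). All probe sets of 45 of the 129 members had their dimmer array placed below 4, a count not made over all genes. By probe set, 38.7% of those of members and 25.4% of all were placed there.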

Other observations

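Probe sets that name a member together with another gene were outside the rule. Of 5 such probe sets, the one for CCL15 and its readthrough transcript had a difference of -0.89, the one for CCL14 and that readthrough -0.44, and the one shared by CCL3 and its copies 0.25. The one shared by IL4I1 and NUP62 lay at -0.52, and the one shared by IL23A and a T cell receptor segment at -0.29. ART3, which lies between CXCL9 and CXCL10 on chromosome 4, was at -0.70 beside CXCL10 at -0.79, on 1 probe set each. In the interleukin cluster of chromosome 1, IL10 and IL24 lay at -0.38 and -0.30, and IL19 and IL20 between them at 0.23 and 0.08. Some single-probe-set members had differences of equal size in every digit given here. They were IL1F10 and CCL21 at 0.117599, IL13RA2 and CCL8 at 0.178181, and CCL24 and CCL16 at 0.204336 and -0.204336.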
